A study of Mus musculus with 6 samples.

Results

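The Schlafen genes are a family of interferon-inducible regulators of growth, named after the German word for sleeping because the first members described slowed the division of T cell precursors. The 7 genes described here (Slfn1, Slfn2, Slfn3, Slfn4, Slfn5, Slfn8 and Slfn9) were chosen by symbol from the 24421 genes of the count table, and all 7 were present and passed the filter on low counts, with 13411 genes tested in all. Another 4 symbols in the table begin with Slfn and lie outside that choice (Slfn10-ps, Slfn14, Slfn5os and Slfnl1). RNA came from Lin-CD117+ cells sorted from bone marrow of CByB6F1 mice, hybrids of the BALB/c and C57BL/6 strains. CD117 is the KIT receptor, and the fraction without lineage antigens that bears it is rich in stem and progenitor cells. The untreated group was 3 pools (1 to 3) and the other group 3 pools (4 to 6) from mice given ruxolitinib (RUX), a drug that blocks the kinases JAK1 and JAK2. All mice were labelled female and 2 to 5 months old, and each pool joined the cells of 2 to 3 mice. The labels used here state neither dose nor length of treatment.

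Type I interferon acts through its receptor, JAK1 and TYK2 on a complex of transcription factors that includes STAT2 and IRF9 and binds the interferon-stimulated response element of target genes. Schlafen genes are among the known targets of that signal in blood cells. The mouse proteins are sorted by size. The short ones, SLFN1 and SLFN2, were described as brakes on T cell growth, and SLFN2 is needed for T cells and monocytes to stay quiescent. SLFN3 and SLFN4 are of intermediate size, and SLFN4 is best known from myeloid cells. SLFN5, SLFN8 and SLFN9 are long and carry an added region like that of RNA and DNA helicases. In the GENCODE M21 annotation of the same genome build, the longest coding transcripts of Slfn1 and Slfn2 encode 337 and 378 residues, those of Slfn4 and Slfn3 encode 602 and 640, that of Slfn5 encodes 884 and those of Slfn8 and Slfn9 encode 910 each.

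The untreated pools held 27354768 to 38691826 counted read pairs and the RUX pools 46027491 to 48747137. Every RUX pool was thus deeper than every untreated pool, and depth cannot be told apart from treatment. Of these read pairs, 1655 to 3370 per pool fell on the 7 genes. Kit, the sorted antigen, stood at 196 to 471 CPM (the counts of a gene scaled to the size of its library), and 0 of the 12 stem and progenitor markers were at 0 in any pool. On the first principal component of all tested genes, untreated pool 3 (24.1) and RUX pool 4 (19.4) stood apart from the other 4 pools (−16.5 to −3.04). Untreated pool 3 also had the lowest Kit. No pair of pools agreed within sampling noise.

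All 7 genes lie in one cluster on chromosome 11 of mm10, from 82952102 to 83215154, a span of 263.053 kb. From low to high coordinate the order is Slfn5 (82952102 to 82964850, plus strand), Slfn9 (82980303 to 82991830, minus), Slfn8 (83002158 to 83020810, minus), Slfn2 (83065112 to 83070678, plus), Slfn1 (83116845 to 83122659, plus), Slfn4 (83175186 to 83190216, plus) and Slfn3 (83191330 to 83215154, plus). The pseudogene Slfn10-ps (83028126 to 83040533, minus) sits between Slfn8 and Slfn2. Of the 7 genes, the short and intermediate ones form the right part of the cluster and the long ones the left part. The long gene Slfn14, outside the 7, lies further right (83275112 to 83286726, minus). A pair in each part is close in sequence. The coding parts of Slfn3 and Slfn4 are 94.6% identical over 1650 aligned bases and those of Slfn8 and Slfn9 92.7% identical over 2730, whereas Slfn1 and Slfn2 share 71.5% over 970 and Slfn5 and Slfn9 64.8% over 1972. Of the 50-base windows of the longest coding transcript, 13.2% of Slfn3, 15.4% of Slfn8, 11.2% of Slfn9 and 8.37% of Slfn4 recur exactly in another gene of the family, against 4.27% of Slfn2, 0.61% of Slfn1 and 0% of Slfn5. With 100-base windows the shares were 0% for Slfn3, 0.05% for Slfn4, 3.71% for Slfn8 and 3.9% for Slfn9. The Slfn9 transcript of GENCODE M21 has 5769 bases, against 3856 exonic bases in the counted annotation. Its shares are thus not those of the counted exons alone. Read pairs that fit several places were not counted under the recorded settings. Levels of Slfn3, Slfn4, Slfn8 and Slfn9 are therefore uncertain, to an extent that depends on the length read and was not measured. Slfn5 shares 77 exonic bases with the antisense transcript Slfn5os, and the counting was not set to use strand.

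**Figure D1:**
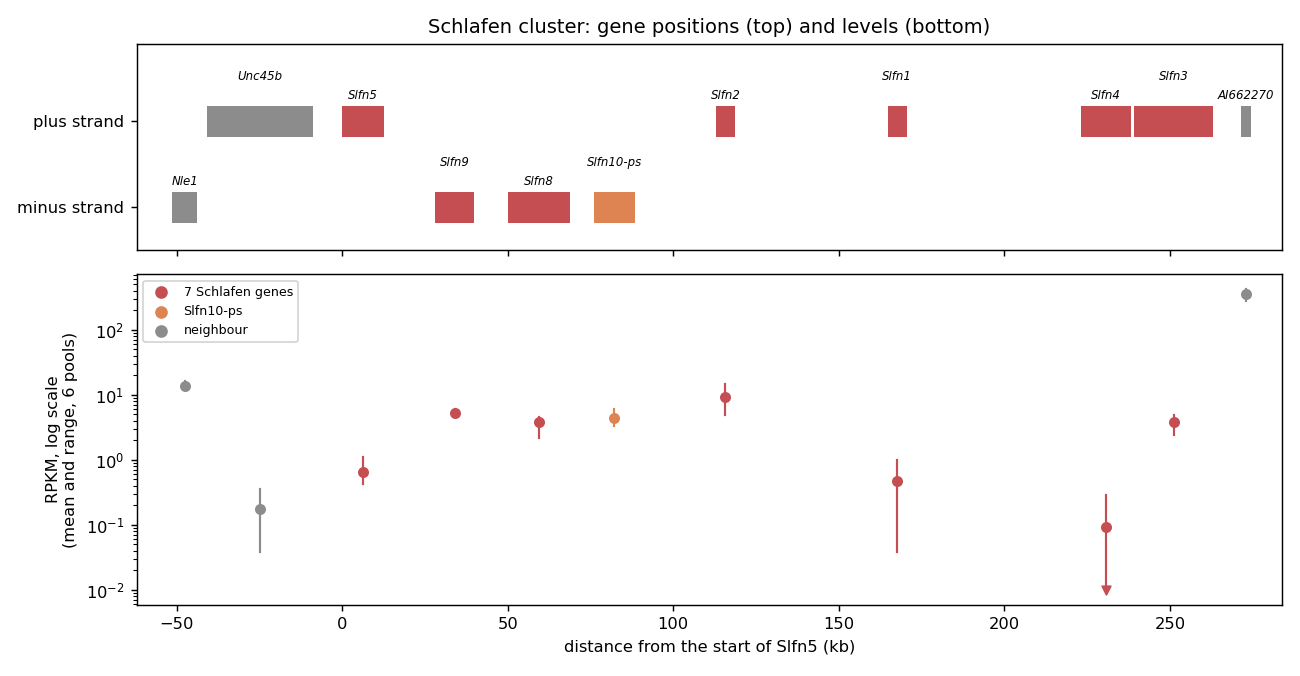
The top panel places genes by strand along the cluster in kb from the start of Slfn5, and the bottom panel gives each gene's mean RPKM on a log scale with its range over the 6 pools (an arrow marks a range that reaches 0). The 7 Schlafen genes run from a mean of 0.0935 RPKM for Slfn4 to 9.40 RPKM for Slfn2.

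The start regions are shown because interferon acts on its target genes through short elements near their starts. RefSeq (GRCm38.p6) gives windows from 250 bases before to 50 bases after the start site for all 7 genes, 8 windows in all because Slfn8 has 2. The response element was searched on both strands as TTTC, any 2 bases and TTTC, which reads GAAA, any 2 bases and GAAA on the opposite strand. It was found in the windows of 3 of the 7 genes, all of them long members (Slfn5, Slfn8 and Slfn9), and in 3.44% of 32851 windows of all genes. These matches are descriptions of letters and not evidence of binding. The stretches around the 3 matches follow, each on the strand of its gene, with the match in capitals. In Slfn8 (chr11:83020809-83020898, minus strand) and Slfn9 (chr11:82991826-82991915, minus strand) the match starts at −48 and −45 from the start site and has the same letters, and in Slfn5 (chr11:82951907-82951996, plus strand) it starts at −155 and lies in a run rich in A.
Slfn8: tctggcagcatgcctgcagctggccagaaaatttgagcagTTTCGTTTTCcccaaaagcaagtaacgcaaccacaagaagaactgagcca
Slfn9: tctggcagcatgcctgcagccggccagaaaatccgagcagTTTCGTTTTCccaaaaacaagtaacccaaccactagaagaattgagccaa
Slfn5: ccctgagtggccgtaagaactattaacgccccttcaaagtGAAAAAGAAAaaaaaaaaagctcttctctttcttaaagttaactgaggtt
The Slfn8 and Slfn9 windows are 87.6% identical over 274 aligned bases, so these 2 matches are not independent, and the 2 windows of Slfn8 overlap and show the same site.

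The other 4 genes had no match to the element in these windows. Their longest run common to all 4 was ACTTCCTGG, looked for after the windows had been read, and it occurs on either strand in 0.843% of all windows. It starts at −74 from the start site in Slfn1 (chr11:83116706-83116794, plus strand), −55 in Slfn2 (chr11:83065017-83065105, plus), −42 in Slfn3 (chr11:83191248-83191336, plus) and −73 in Slfn4 (chr11:83175073-83175161, plus). The stretches below show it in capitals, since it is the longest exact run that the windows of these 4 related genes share.
Slfn1: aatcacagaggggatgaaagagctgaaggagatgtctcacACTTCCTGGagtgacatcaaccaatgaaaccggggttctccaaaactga
Slfn2: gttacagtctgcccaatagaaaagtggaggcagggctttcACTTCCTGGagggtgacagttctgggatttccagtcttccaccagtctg
Slfn3: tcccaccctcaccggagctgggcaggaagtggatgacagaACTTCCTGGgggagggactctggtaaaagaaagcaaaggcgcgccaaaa
Slfn4: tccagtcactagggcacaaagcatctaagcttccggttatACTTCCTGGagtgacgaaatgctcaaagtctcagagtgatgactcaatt
In Slfn1 and Slfn4 the shared run goes on to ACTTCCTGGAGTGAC, and these 2 windows are the only ones of the 32851 that hold it on either strand. That run was picked as the longest common to these 2 windows, so its rarity is a description and not a test.

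Levels were compared between genes as RPKM, CPM divided by the exon length in kb. Slfn2 was the most abundant member, at 9.40 ± 3.60 RPKM (SD, n = 6 pools), which placed it above 54.1% of the tested genes. Slfn9 followed at 5.32 ± 0.489, Slfn3 at 3.82 ± 0.888 and Slfn8 at 3.78 ± 0.834 RPKM. Slfn5 (0.643 ± 0.254 RPKM), Slfn1 (0.479 ± 0.366) and Slfn4 (0.0935 ± 0.101) were far lower, and Slfn4 stood above only 2.18% of the tested genes. The ranges over the 6 pools overlapped between each neighbour in that order except between Slfn8 (lowest 2.18) and Slfn5 (highest 1.10), so the family fell into 4 genes with moderate and 3 with low levels. Slfn2 exceeded Slfn9 in 5 of 6 pools and Slfn9 exceeded Slfn3 in 6 of 6, while Slfn3 exceeded Slfn8 in only 4 of 6.

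Slfn2 made up 24.3 to 53.6% of the summed RPKM of the family, with the highest share in untreated pool 3 and the lowest in RUX pool 6. Slfn9 made up 20.0 to 29.6%. The summed RPKM was 20.8, 24.5 and 27.2 for the untreated pools (1, 2, 3) and 22.3, 26.2 and 20.2 for the RUX pools (4, 5, 6). The groups overlapped in this sum, with means of 24.1 and 22.9.

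**Figure D2:**
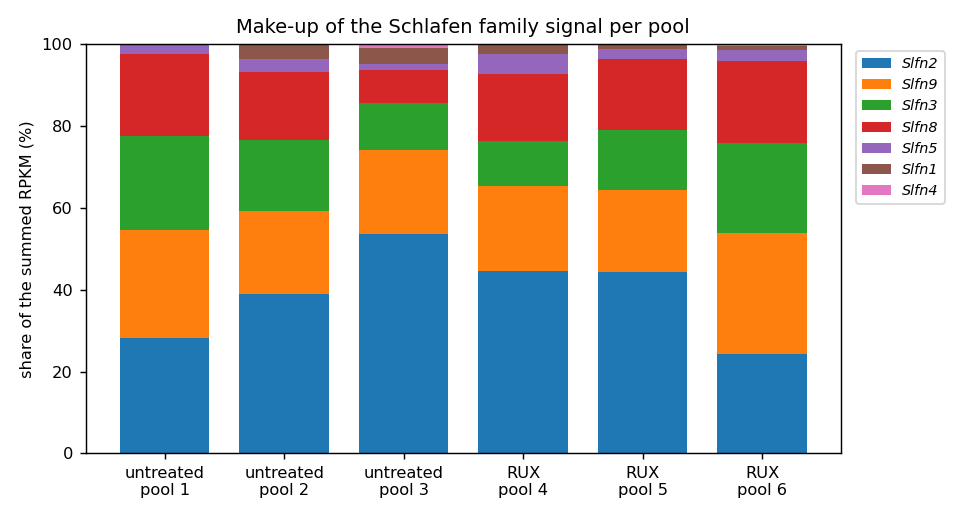
Bars give the share of each gene in the summed RPKM of the 7 Schlafen genes (vertical axis, percent) for each pool (horizontal axis). The Slfn2 share runs from 24.3% in RUX pool 6 to 53.6% in untreated pool 3, so the 2 extremes lie in different groups.

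The pools of RUX-treated mice were then compared with the untreated pools. Of the 7 genes, 0 passed edgeR's quasi-likelihood test at a Benjamini-Hochberg adjusted p under 0.05, beside 0% of all 13411 tested genes. At an unadjusted p under 0.05 there were 0 of the 7, beside 1.89% of all tested genes (254 in edgeR, 281 in DESeq2 and 262 in limma-voom); DESeq2 and limma-voom also called 0 genes. The RUX pools lay entirely above or entirely below the untreated pools for 0 of the 7, beside 6.24% of all tested genes (2.99% above and 3.25% below). Log2 fold changes (RUX minus untreated) were positive for 2 genes, Slfn5 and Slfn8, and negative for 5, where 49.2% of all tested genes were positive. Their median was −0.18 (−0.0036 over all tested genes), and it was 0.010 without untreated pool 3 and 0.0043 without RUX pool 4. In these bulk samples fewer cells of a type and less RNA per cell cannot be told apart.

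Slfn2, which is needed for T cell quiescence, measured 9.71, 15.8 and 24.3 CPM in the untreated pools (1, 2, 3 in order, here and below) and 16.6, 19.3 and 8.19 CPM in the RUX pools (4, 5, 6). The highest pool was untreated and the lowest was treated, and the groups overlapped across most of their range. The log2 fold change was −0.18 ± 0.33 (SE; edgeR adjusted p = 1.00), with a 95% interval of the fold from 0.544 to 1.44. The 2.96-fold spread from the lowest to the highest pool was wider than that of any other of the 4 moderately expressed members. The value turned positive without untreated pool 3 (0.20) or without RUX pool 6 (0.11).

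Slfn1, the other short member, measured 0.0714, 1.51 and 1.87 CPM in the untreated pools and 0.880, 0.554 and 0.456 CPM in the RUX pools. The untreated group held both the lowest and the highest values, with the treated pools in between. The 2 read pairs of untreated pool 1 give an exact 95% Poisson interval of 0.00865 to 0.258 CPM (counting error only), below the intervals of the other 5 pools, of which the lowest bound was 0.289. The log2 fold change was −0.89 ± 0.70 (SE; edgeR adjusted p = 1.00), with a fold interval from 0.190 to 1.53.

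Slfn4, the myeloid member of intermediate size, measured 0, 0.333 and 1.15 CPM in the untreated and 0.255, 0.185 and 0.297 CPM in the RUX pools. In untreated pool 1 the count of 0 gives an exact 95% Poisson interval of 0 to 0.132 CPM (counting error only). A floor of 3 counts in that pool is 0.107 CPM. Untreated pool 3, with 42 read pairs, lay above all other pools, which had 0 to 15. The log2 fold change was −1.03 ± 0.86 (SE; edgeR adjusted p = 1.00) and turned to 0.45 without untreated pool 3 and to 0.22 in limma-voom.

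Slfn3, whose coding sequence is nearly that of Slfn4, had another pattern. It measured 8.75, 7.70 and 5.66 CPM in the untreated and 4.45, 6.99 and 8.07 CPM in the RUX pools, so untreated pool 3 was the lowest untreated pool for Slfn3 and the highest of all for Slfn4. The log2 fold change was −0.18 ± 0.26 (SE; edgeR adjusted p = 1.00), with a fold interval from 0.602 to 1.30, and without RUX pool 4 it was 0.039.

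Slfn5, the long member outside the close pairs, measured 2.86, 4.53 and 2.50 CPM in the untreated and 6.60, 3.57 and 3.03 CPM in the RUX pools. RUX pool 4 was the highest pool, and the other 2 RUX pools lay within the untreated range. The log2 fold change was 0.41 ± 0.33 (SE; edgeR adjusted p = 1.00), a fold of 1.33 with an interval from 0.808 to 2.19, and it was 0.0043 without RUX pool 4, 0.72 without untreated pool 2 and 0.62 without RUX pool 6.

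Slfn8 and Slfn9 are the long pair with coding sequences 92.7% identical. Slfn8 measured 16.6, 16.3 and 8.73 CPM in the untreated and 14.7, 18.3 and 16.3 CPM in the RUX pools. Only untreated pool 3 stood apart, on the low side, and the log2 fold change was 0.25 ± 0.23 (SE; edgeR adjusted p = 1.00), or −0.00032 without that pool. Slfn9 measured 21.1, 19.3 and 21.6 CPM in the untreated and 17.7, 20.2 and 23.1 CPM in the RUX pools. Its pools spanned 1.30-fold, the narrowest range of the 7 genes. The log2 fold change was −0.02 ± 0.16 (SE; edgeR adjusted p = 1.00), and the fold's interval from 0.770 to 1.26 was the narrowest of the 7.

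**Figure D3:**
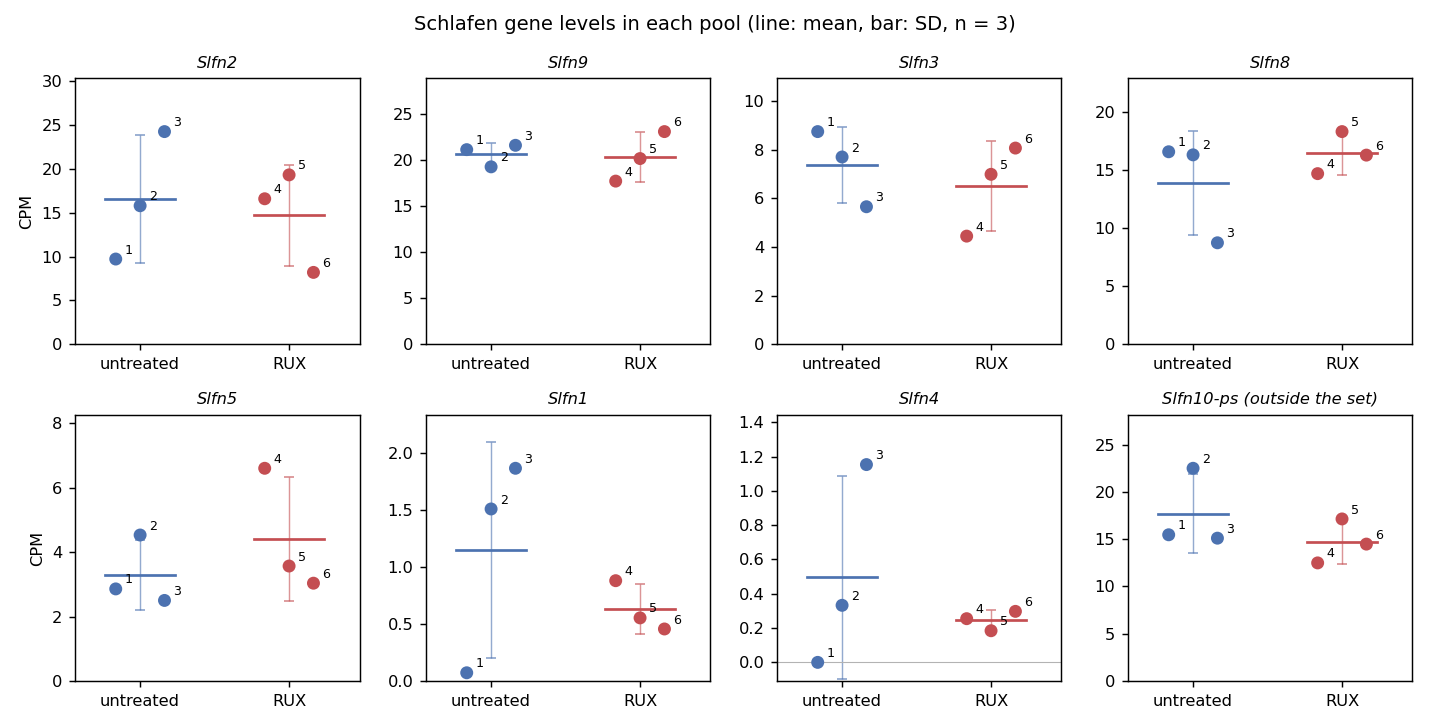
Each panel shows 1 gene in CPM (vertical axis, linear) with the 3 untreated pools in blue and the 3 RUX pools in red, numbered by pool, with the mean as a line and the SD as a bar. The groups overlap in every panel, and untreated pool 3 is the highest for Slfn1, Slfn2 and Slfn4 and the lowest for Slfn5 and Slfn8. The last panel is Slfn10-ps, which is not among the 7 genes.

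**Figure D4:**
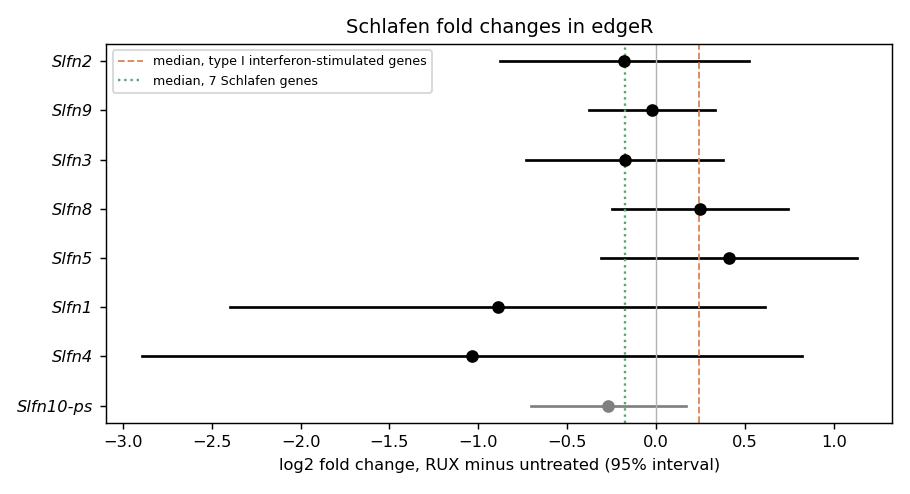
Points are log2 fold changes, RUX minus untreated, and lines their 95% intervals from edgeR for the 7 Schlafen genes and Slfn10-ps (grey). All intervals include 0; the dotted line is the Schlafen median (−0.18) and the dashed line that of the type I interferon-stimulated genes (0.24).

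Exact permutation tests of log2(CPM + 1), two-sided and 3 pools against 3, gave p of 0.5 for Slfn5, 0.6 for Slfn1 and Slfn3, 0.7 for Slfn4 and Slfn8, 0.8 for Slfn2 and 0.9 for Slfn9, where 0.1 is the smallest p this design allows. These are unadjusted values, 1 for each of the 7 genes.

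Slfn10-ps, annotated as a transcribed pseudogene, was counted at levels like those of the coding members. It measured 15.5, 22.5 and 15.1 CPM in the untreated and 12.5, 17.1 and 14.5 CPM in the RUX pools, or 3.37 to 6.07 RPKM. The groups overlapped, and the log2 fold change was −0.27 ± 0.20 (SE; edgeR adjusted p = 1.00). Of its 50-base windows, 19.7% recur in another family gene, and 7.84% of its 100-base windows do, so part of its signal is uncertain. Slfn14, the last long gene of the cluster, had 0 to 8 read pairs per pool, Slfn5os 0 to 1 and Slfnl1 on chromosome 4 0 to 3, all below the filter.

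Most other interferon-stimulated genes had positive log2 fold changes, and none passed the test. A list of 39 type I interferon-stimulated genes had 38 in the table, all tested, and 0 were called. The sign was positive for 33 and negative for 5, beside 49.2% of all tested genes positive, and the median was 0.24. The RUX pools lay entirely above the untreated ones for 9 of the 38, beside 2.99% of all tested genes. In edgeR 9 had an unadjusted p under 0.05, beside 1.89% of all tested genes. The 3 with the smallest p were Oasl2 and Oas3, of the oligoadenylate synthetase family, and the ADP-ribosyltransferase gene Parp14, with log2 fold changes of 0.71, 0.69 and 0.59. The difference between the Schlafen genes and this list was not tested.

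Among the genes that carry the interferon signal, 15 of 15 listed were tested and 0 called. The sign was positive for 8 and negative for 7, around a median of 0.007 and with a range from −0.17 to 0.77. The RUX pools lay entirely above the untreated ones for 1 of the 15, Irf9, beside 2.99% of all tested genes. The receptor subunit genes Ifnar1 and Ifnar2 had log2 fold changes of −0.09 and 0.03, the kinase genes Jak1 and Tyk2 0.01 and −0.04, and the transcription factor genes Stat2 and Irf9 −0.01 and 0.11. Irf7, itself an interferon target, averaged 8.91 ± 1.48 CPM without and 11.5 ± 1.75 CPM with RUX (SD, n = 3). Usp18, which restrains the receptor, averaged 12.7 ± 1.91 and 15.9 ± 1.49 CPM, and both had an edgeR adjusted p of 1.00.

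Genes tied to quiescence and to division, the processes Schlafen proteins are known to regulate, showed no call either. Among 20 quiescence genes the sign was positive for 11 and negative for 9 (median 0.02, 0 called). The 3 with the smallest p were the orphan receptor gene Nr4a1 (−0.79), the cyclin-dependent kinase inhibitor gene Cdkn1c (0.40) and the antiproliferative gene Tob2 (0.20). Of 20 proliferation genes 14 were positive and 6 negative, with a median of 0.007 and 0 called. The mitotic kinase genes Plk1, Bub1 and Aurka had values of 0.23, −0.16 and 0.13.

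Marker lists of other blood cells shared their highest or lowest pool with several Schlafen genes, and their part in these results was not tested. Between the groups, the median log2 fold change was −0.82 for the neutrophil list (10 of 14 tested genes negative), −0.23 for the monocyte and macrophage list (10 of 12), −0.18 for the B cell list (9 of 10) and −0.14 for the T and NK cell list (7 of 12), with 0 called in each. Other lists had positive medians, also with 0 called. These were 0.20 for the megakaryocyte list (8 of 8 tested genes positive), 0.14 for the sorted stem and progenitor list (10 of 12) and 0.06 for the erythroid list (7 of 10). The order of the pools by Slfn1 (untreated 3, untreated 2, RUX 4, RUX 5, RUX 6, untreated 1, from high to low) was the same as that by the mean deviation of the neutrophil markers, a match noticed after the values had been seen. Those deviations, in log2(CPM + 1) from the 6-pool mean of each marker, were −1.64, 0.72 and 1.17 for the untreated pools and 0.57, 0.12 and −0.96 for the RUX pools. Of 15 neutrophil markers 14 were in the table and 0 of them at 0 in any pool, with summed levels of 6723 to 15079.9 CPM (untreated) and 8078 to 11445 CPM (RUX). The sum did not follow the same order, since untreated pool 2 had the lowest sum and the second highest deviation. The highest levels in the list were those of Mpo (3630 to 9240 CPM), Elane (493 to 2429 CPM) and Prtn3 (294 to 948 CPM), primary granule genes that progenitors also express. S100a8, a calprotectin subunit of later neutrophils, ranged from 54.5 to 739 CPM, and the secondary granule gene Camp from 12.5 to 209 CPM. Slfn2 and Slfn4 were also highest in untreated pool 3, where the monocyte and macrophage markers had their highest mean deviation (0.46), and Slfn2 was lowest in RUX pool 6, where those markers had their lowest (−0.45). The B cell (−0.38), T and NK cell (−0.27) and quiescence (−0.17) lists were lowest in RUX pool 6 as well. The whole order of the pools by Slfn2 differed from that by the monocyte and macrophage markers. Slfn9 was highest in RUX pool 6 and lowest in RUX pool 4, as were the proliferation and erythroid lists, and Slfn3 was also lowest in RUX pool 4.

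The 15 monocyte and macrophage markers summed to 874 to 1719 CPM (untreated) and 738 to 1216 CPM (RUX), with 1 to 2 of them at 0 per pool, among them the macrophage receptor gene Marco in all 6. The 15 T and NK cell markers summed to 243 to 399 CPM (untreated) and 249 to 449 CPM (RUX), with 0 to 2 at 0 per pool. Nkg7 made up most of that sum, at 187 to 403 CPM. The T cell receptor complex genes Cd3e (0.0992 to 0.538 CPM), Cd3g (0.278 to 1.09) and Cd3d (0.321 to 2.59) were low, as were the coreceptor genes Cd8a (0 to 0.247) and Cd4 (0.579 to 1.68), while the kinase gene Lck stood at 15.9 to 24.9 CPM and the cytokine receptor gene Il7r at 12.2 to 18.7. The 10 B cell markers summed to 362 to 406 CPM (untreated) and 266 to 399 CPM (RUX), with 0 at 0 in any pool. Slfn8, in contrast, was lowest in untreated pool 3, where the stem and progenitor markers also had their lowest mean deviation (−0.48, against 0.02 to 0.22 in the other 5).

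**Figure D5:**
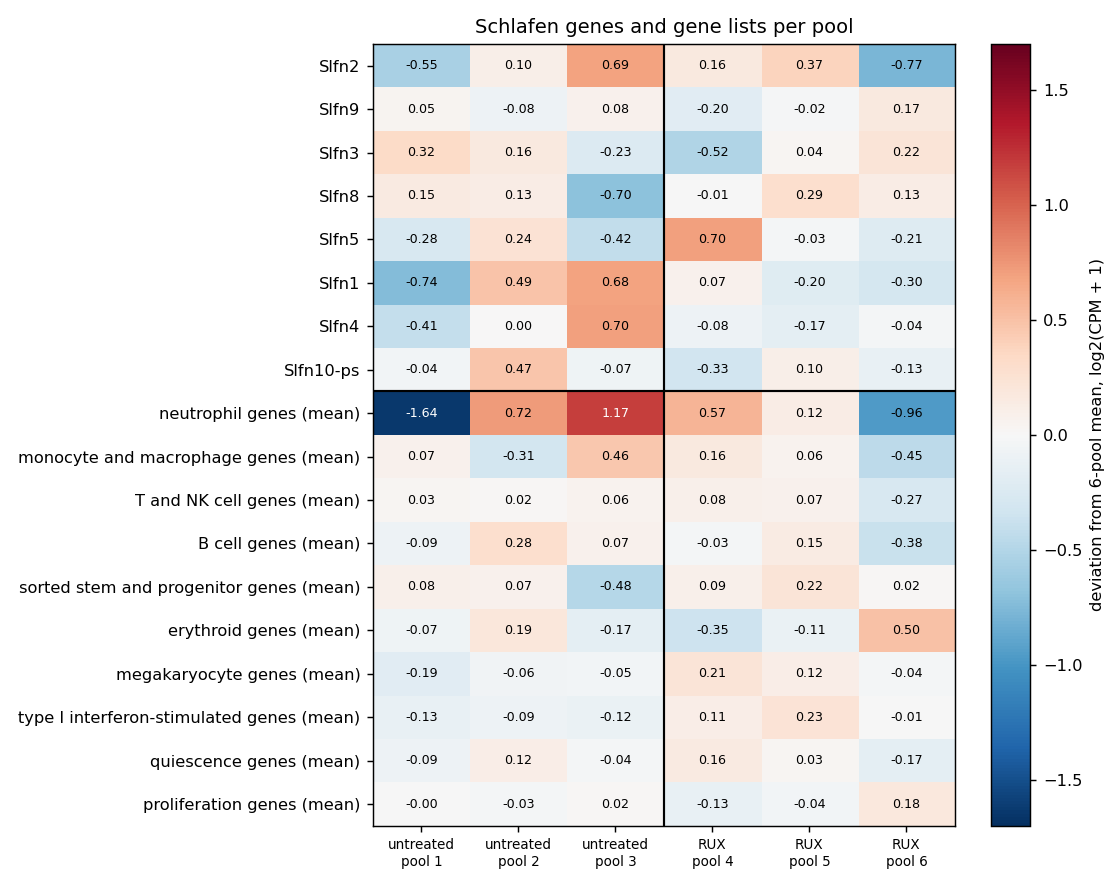
Colours and numbers are deviations from the 6-pool mean in log2(CPM + 1), per gene above the line and as the mean over each gene list below it, with 1 column per pool. In untreated pool 3, Slfn1, Slfn2 and Slfn4 are at 0.68 to 0.70 and the neutrophil list at 1.17, while Slfn8 is at −0.70.

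For the 4 members with a mean of at least 5 CPM, the genes with the most similar profile over the 6 pools were taken by Pearson's r of log2(CPM + 1) among 9581 others of that level. These are descriptions, given without a test because each is the highest of many. For Slfn2 they were Cyp4f13, Dennd1c and Zfp358 (r of 0.980, 0.971 and 0.966), and for Slfn3 Recql, Xpo1 and Caprin1 (0.996, 0.995 and 0.994). For Slfn8 they were Sar1a, Klf10 and Thada (0.997, 0.993 and 0.990), and for Slfn9 Eif2ak4, Map2k3 and Sqstm1 (0.991, 0.991 and 0.990). None of the 12 was another Schlafen gene.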

How the data were processed

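Per the labels' protocols, the SMART-Seq mRNA LP kit (Takara) was used for the libraries. STAR and mm10 are named in the submitters' processing notes. The authors deposited unnormalized counts, which featureCounts 2.0.3 made from read pairs over UCSC mm10 exons, with no strand or multimapping option set, per the file headers. The summed exon length per gene in the same table, also deposited, gave RPKM.

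From the counts, edgeR 4.0.16 (R 4.3.3) tested all genes passing filterByExpr (at most 0.0358% of a pool's counts removed) with TMM scaling, the two-sided quasi-likelihood test and treatment as the only term. DESeq2 1.42.0 and limma 3.58.1 were alternatives. The SE is the log2 fold change over the square root of its F statistic. The fit was tested on simulated data. Sequence comparisons used Biopython 1.88. The p-values weigh the difference between groups against the spread between pools. Each pool joined 2 to 3 mice, so the spread between single mice was not measured. The members and lists were chosen with earlier results of these data known. Named genes were all members and other Slfn symbols, neighbours of the cluster, chosen interferon signalling genes and Kit, in each other gene list the 3 genes with the smallest unadjusted p, and for each member of at least 5 CPM the 3 genes with the highest Pearson r. Single marker genes of other cell types were named after their values had been seen. Exact Poisson intervals and floors of 3 counts cover counting error only, as reads were amplified without stated molecular identifiers. Of the listed genes, Rnf213, Ly6g and Mpig6b were not found by symbol and are not analysed here. Some results covered by this rule are not reported here.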

Additional observations from a re-analysis of the deposited data

How the results depend on the processing

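No setting called any of the 7 Schlafen genes. The count of all genes called stayed at 0 except with no low-count filter, where it was 14 (4 higher and 10 lower, all 10 of them in the neutrophil list), none a Schlafen gene. The Schlafen median log2 fold change of −0.18 ranged from −0.23 to 0.010 with 1 pool left out; it was 0.010 without untreated pool 3 and 0.004 without RUX pool 4. With untreated pool 3 and RUX pool 4 left out together, chosen after seeing the data, the median was 0.076. Signs changed for 6 of the 7 genes and not for Slfn1 (−1.42 to −0.22). Without untreated pool 3 the values were 0.20 for Slfn2, 0.45 for Slfn4, −0.00032 for Slfn8 and 0.01 for Slfn9. Without RUX pool 4 they were 0.039 for Slfn3 and 0.073 for Slfn9, and without RUX pool 6 Slfn2 was at 0.11. With both pools left out they were 0.10 for Slfn2, 0.41 for Slfn4, −0.17 for Slfn5 and 0.10 for Slfn9. With 1 pool left out the ranges were −0.45 to 0.20 for Slfn2, −0.36 to 0.039 for Slfn3, −1.58 to 0.45 for Slfn4, 0.0043 to 0.72 for Slfn5, −0.00032 to 0.39 for Slfn8 and −0.13 to 0.073 for Slfn9. In limma-voom Slfn4 was at 0.22. Without untreated pool 1, Slfn1 and Slfn4 had an unadjusted edgeR p under 0.05 (smallest 0.0109), with an adjusted p of 1.00. In that setting 258 of 13745 tested genes had an unadjusted p under 0.05. Untreated pool 1 was the lowest pool for both genes, so leaving it out raises their untreated mean by construction. Slfn1 and Slfn4 were not tested at a minimum of 1 CPM in 3 pools. No paired analysis was possible because the groups share no replicate numbers.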

Other observations

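The strongest signal in the neighbourhood of the Schlafen cluster came from AI662270, annotated as a long non-coding RNA, which lies 8.42 kb beyond the end of Slfn3 on the same strand (chromosome 11, 83223576 to 83226584, mm10). It measured 356, 321 and 412 RPKM in untreated pools 1, 2 and 3 and 420, 316 and 277 RPKM in RUX pools 4, 5 and 6, a level far above the 9.40 RPKM of Slfn2. The groups overlapped, and the log2 fold change was −0.10 ± 0.17 (SE; edgeR adjusted p = 1.00). Of the 15 neighbours within 200000 bases of the cluster that are not of the family, 12 were tested. Of these, 6 had positive and 6 negative log2 fold changes, from −0.41 for Gm11423 to 0.98 for the chaperone gene Unc45b, which had 5 to 63 read pairs per pool. None of the 12 was called by edgeR, 0 had an unadjusted p under 0.05, and all overlapped between the groups.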
